A study of Homo sapiens with 38 samples.

Results

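A pair of FLAG-tagged zinc finger constructs were mapped in the same cells by CUT&RUN, in which an antibody directs micrococcal nuclease to cut the DNA around a bound protein. The members are all peaks of the mouse anti-FLAG lists of the lines CTCF DBD and Sp1 WT, 649 and 5151 of the 27085 peaks in the 19 lists of the series. CTCF DBD is the DNA binding domain of CTCF alone, and Sp1 WT is full-length Sp1. Both lines are U2OS, a human osteosarcoma line, in which the endogenous SP1 gene carries a V5-Halo knock-in, as it does in the parental line. The doxycycline-inducible, SNAPf- and FLAG-tagged transgene sits at the AAVS1 safe harbor locus. Cells received 1 µg/ml doxycycline for 36 h, were sorted by the fluorescence of Halo and SNAP ligands, were kept under doxycycline for another 36 h, and were permeabilized with 0.02% digitonin. Each list joins the 2 biological replicates of its line through IDR (irreproducible discovery rate, at most 0.1), so a list has no replicate of its own. Values from the first and second IDR input are read at these same merged peaks, which passed in both, so they show how far widths, summits and p-values move and not how far the replicates differ in the sites they hold. Read numbers were not analysed here. Peak lists hold no expression, so the cell line label cannot be checked against markers here. Endogenous Sp1 was thus present in both lines but carried no FLAG tag.

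Sp1 is a ubiquitous activator that binds GC boxes in CpG-rich promoters through the zinc fingers at its C-terminal end, and a long disordered region that is rich in glutamine, serine and threonine precedes them. CTCF binds a longer motif through a run of zinc fingers and is known for its sites at insulators and, with cohesin, at the anchors of chromatin loops. The parts of CTCF that flank its zinc fingers, with the N-terminal segment that contacts cohesin, were absent from the CTCF DBD construct, as was any Sp1 sequence.

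A peak was called shared when it had at least 1 bp in common with a peak of the other list, and private otherwise. Contrasts between shared and private peaks in traits that mark the other list are therefore not independent of this definition. By this rule 200 CTCF DBD peaks overlapped 200 Sp1 WT peaks, 30.8% of the CTCF DBD list (95% Wilson interval 27.4 to 34.5) and 3.88% of the Sp1 WT list (3.39 to 4.45). All intervals cover counting error over peaks only, because peaks are sites and not replicates. A difference between shares is called beyond counting error when its 95% Newcombe interval leaves out 0. No p-value is given for a difference between lists, since there was 1 list per line and 2 IDR inputs against 2 cannot give an exact permutation p under 0.333.

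The sequences below show the motifs searched for, as they stand in members of each class. They were chosen for holding the motif and so say nothing of how often a class holds it. They come from the 3 highest ranked peaks of each class, outside repeated sequence, that held the motif within 100 bp of the summit, in hg38 and 5′ to 3′ on the strand given. Windows that touch an untranslated region were kept to 30 bases. Among CTCF DBD private peaks, the capitals mark the CTCF core motif.
STARD3NL, chr7:38106014-38106134, plus strand: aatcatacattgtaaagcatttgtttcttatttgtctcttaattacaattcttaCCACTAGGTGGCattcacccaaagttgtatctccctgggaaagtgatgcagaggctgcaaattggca
SPEF2, chr5:35617785-35617814, plus strand: tcttacccgCCAGCAGGTGGCgaaacacga
CEACAM7, chr19:41706772-41706892, plus strand: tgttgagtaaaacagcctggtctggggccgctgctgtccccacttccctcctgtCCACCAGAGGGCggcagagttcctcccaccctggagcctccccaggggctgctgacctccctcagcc
The STARD3NL summit lay outside genes, 72249 bp from the nearest start, whereas the SPEF2 and CEACAM7 summits lay 131 and 63 bp from starts of these genes. In the CEACAM7 window a GC box overlaps the last bases of the core. Among shared peaks the capitals again mark the CTCF core motif, and the PTDSS2 peak also held a GC box within 100 bp of its summit, outside the window shown.
PTDSS2, chr11:448372-448492, minus strand: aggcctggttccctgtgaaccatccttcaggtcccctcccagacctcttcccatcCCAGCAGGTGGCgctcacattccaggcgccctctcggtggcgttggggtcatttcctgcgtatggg
TPR, chr1:186375606-186375635, plus strand: gacactgagCCACTAGAGGGCatcggtccc
NAE1, chr16:66873293-66873322, minus strand: gggacacggCCAGCAGGGGGCgcggcccgg
Among Sp1 WT private peaks, the capitals mark GC boxes (GGGCGG, read on both strands).
SIN3A, chr15:75451763-75451883, minus strand: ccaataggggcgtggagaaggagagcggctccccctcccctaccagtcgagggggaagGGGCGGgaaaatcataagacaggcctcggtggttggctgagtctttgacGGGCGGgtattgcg
SLC27A1, chr19:17470117-17470237, plus strand: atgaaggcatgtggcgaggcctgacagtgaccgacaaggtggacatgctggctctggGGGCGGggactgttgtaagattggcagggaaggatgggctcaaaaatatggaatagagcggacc
RAB4B, chr19:40778548-40778668, plus strand: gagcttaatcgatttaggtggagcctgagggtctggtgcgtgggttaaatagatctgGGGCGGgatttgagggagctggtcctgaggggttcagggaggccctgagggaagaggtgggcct
The Sp1 WT windows at SIN3A (a corepressor scaffold), SLC27A1 (a fatty acid transporter) and RAB4B (a small GTPase) ranked 9, 10 and 11 of 5151. The CTCF DBD windows ranked from 97 to 119 of 649 when private and from 293 to 636 when shared, so that none of the 10 leading peaks of either CTCF DBD class is among them.

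The first question was where each protein lay relative to genes. CTCF DBD peaks were less often at promoters than Sp1 WT peaks. Of the CTCF DBD summits, 358 of 649 (55.2%) lay within 1000 bp of a GENCODE transcription start, against 4320 of 5151 (83.9%) of the Sp1 WT summits, a difference of -28.7 percentage points (-32.7 to -24.8). The shares taken from each IDR input were 55.5% and 55.2% for CTCF DBD and 83.9% in both inputs for Sp1 WT, so moving the summit between inputs changed little. The gap was widest close to the start. Summits within 100 bp of a start made up 21.1% of CTCF DBD peaks and 41.8% of Sp1 WT peaks. Summits over 1000 and up to 10000 bp away made up 25.6% and 9.44%, those over 10000 and up to 100000 bp away 11.9% and 5.22%, and those farther still 4.93% and 0.835%. The median distance to a start was 538 bp for CTCF DBD and 129 bp for Sp1 WT.

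The CTCF DBD list held peaks at promoters and peaks away from them. Its 200 shared peaks lay within 1000 bp of a start in 81.5% of cases and its 449 private peaks in 43.4%, a difference of 38.1 points (30.5 to 44.6). Median distances to a start were 165 bp for shared peaks and 1671 bp for private ones. The shared CTCF DBD peaks had a promoter share close to that of the Sp1 WT list, in which 83.9% of summits lay within 1000 bp of a start. Overlap with that list defined them, so neither this closeness nor the gap to private peaks is independent of the definition. Within the Sp1 WT list, shared (80.0%) and private peaks (84.0%) differed by -4.02 points, within counting error (-10.2 to 1.04). Private CTCF DBD peaks lay over 1000 and up to 10000 bp from a start in 33.2% of cases, against 17 of the 200 shared ones.

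**Figure D1:**
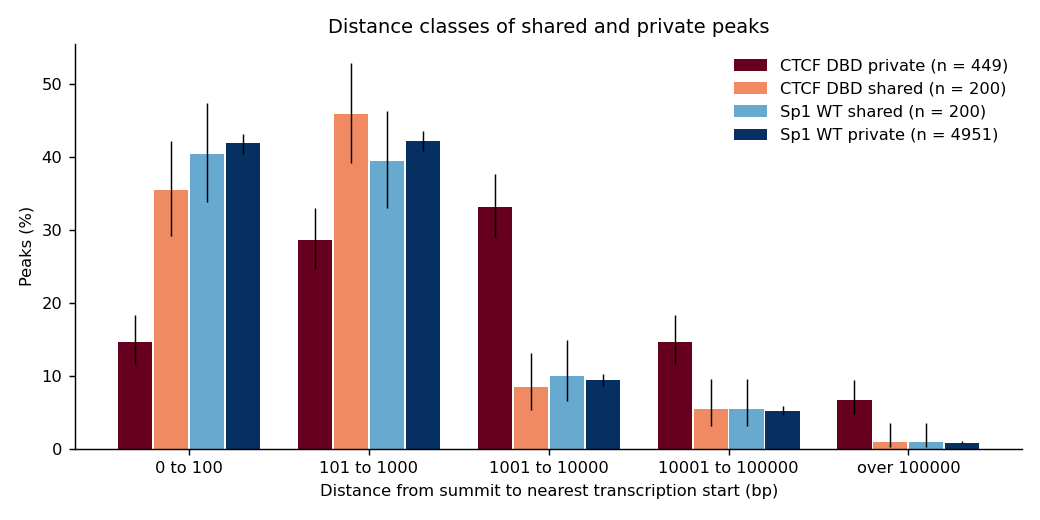
Share of peaks (%) by distance from the summit to the nearest transcription start (bp) for private and shared peaks of both lists; bars are shares and lines are 95% Wilson intervals. CTCF DBD private peaks stand apart, with 14.7% within 100 bp and 33.2% between 1000 and 10000 bp, while the shared peaks of both lists follow the Sp1 WT private peaks. Shared CTCF DBD peaks overlap Sp1 WT peaks by definition, so their likeness to that list is not independent of it.

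Repeated sequence was more frequent in the CTCF DBD list. A peak was called repeated when at least 50% of the 31-base words within 100 bp of its summit occurred more than once in hg38. Alternate sequences of hg38 were left out. Repeated peaks numbered 127 in the CTCF DBD list (19.6%) and 352 in the Sp1 WT list (6.83%). Of the 127 repeated CTCF DBD peaks, 20.5% lay within 1000 bp of a start and 25.2% lay over 100000 bp from any. Without repeated peaks the promoter shares were 63.6% and 86.6%, and they still differed by -23.0 points (-27.4 to -18.9). Shared and private CTCF DBD peaks outside repeats differed as much as before, with 90.5% and 50.8% within 1000 bp.

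The side of the start on which the summits fell also differed. Among peaks within 1000 bp of a start, 34.6% of Sp1 WT summits lay downstream of it (33.2 to 36.0), with a median position 52 bp upstream. For CTCF DBD 47.2% lay downstream (42.1 to 52.4), a difference of 12.6 points (7.31 to 18). Shared and private CTCF DBD peaks, at 49.1% and 45.6% downstream, did not differ beyond counting error (3.44 points, -6.87 to 13.7). The Sp1 WT peaks of the shared class had 45.6% of summits downstream against 34.2% of the private Sp1 WT peaks, and did not differ from the shared CTCF DBD peaks beyond counting error (3.45 points, -7.36 to 14.2). Summits at shared sites thus fell about evenly to either side in both lists, and the Sp1 WT list as a whole lay mostly upstream.

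**Figure D2:**
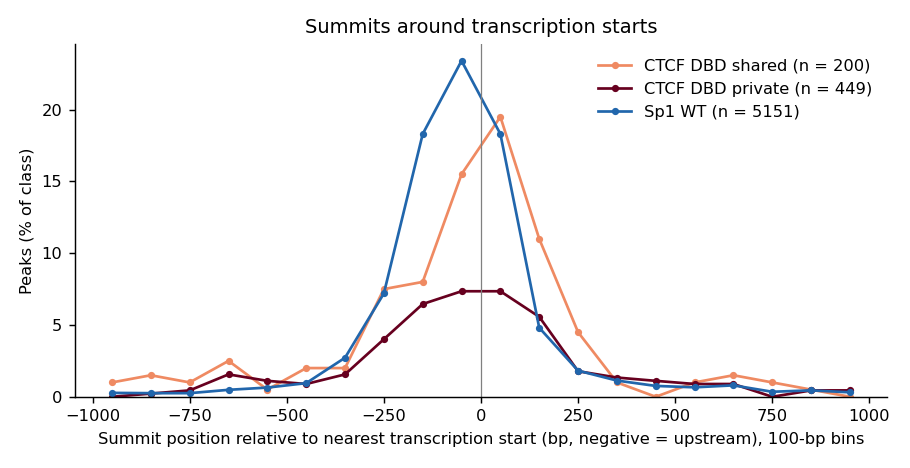
Share of each class (%) in 100-bp bins of the summit's position relative to the nearest transcription start, negative values being upstream; lines join the bins of shared CTCF DBD, private CTCF DBD and all Sp1 WT peaks. The Sp1 WT line is highest from 100 bp upstream up to the start (23.4% of peaks), whereas the shared CTCF DBD line is highest in the first 100 bp downstream (19.5%), as are the shared Sp1 WT peaks, which are not drawn (48 of 200).

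By gene type, the nearest start belonged to a protein-coding gene for 60.1% of CTCF DBD peaks and 77.6% of Sp1 WT peaks, a difference of -17.5 points (-21.5 to -13.6). Long noncoding RNA genes were nearest for 19.6% and 16.6%, which did not differ beyond counting error (2.99 points, -0.0630 to 6.37). All other types, among them pseudogenes and small RNA genes, were nearest for 17.9% and 5.18%. The difference in type was smaller near starts. Among peaks within 1000 bp of a start, 77.7% and 82.6% were nearest to a protein-coding gene, a difference of -4.99 points (-9.71 to -0.813) that fell to -2.98 points (-7.67 to 1.04) without repeated peaks. Summits in exons made up 27.7% and 31.5%, and those in introns 32.5% and 32.7%. Summits both outside genes and over 1000 bp from a start made up 26.2% of CTCF DBD peaks and 7.32% of Sp1 WT peaks. Chromosome 19, the most gene-dense human chromosome, held 3.70% of CTCF DBD peaks and 9.53% of Sp1 WT peaks, and the difference held without repeats (4.60% and 10.1%).

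The sequence under the summits differed in both motifs. Within 100 bp of the summit, GGGCGG occurred in 31% of CTCF DBD peaks and 70.2% of Sp1 WT peaks, against 7.27% and 7.75% of windows of the same length placed 2000 bp to either side and 46.9% of windows around all protein-coding gene starts. The CTCF core motif occurred in 25 CTCF DBD peaks (3.85%) and in 17 Sp1 WT peaks (0.330%), a difference of 3.52 points (2.28 to 5.30), against 0.232% and 0.185% of the flanking windows and 0.361% of the windows at gene starts. Neither motif was present in 66.1% of CTCF DBD windows and 29.8% of Sp1 WT windows. Each input gave close values, with the core in 3.70% and 4.47% of CTCF DBD windows and in 0.369% and 0.330% of Sp1 WT windows. A match is a string of letters and not a measured site.

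The CTCF core lay to the side of the summit rather than under it. Counted in 50-bp bins of distance, a core centre fell 0 to 49 bp from the summit in 8 CTCF DBD peaks, 50 to 99 bp in 22, 100 to 149 bp in 49 (7.55% of the list), and 150 to 199 bp in 6. In Sp1 WT peaks the same bins held between 0.136% and 0.233% of the list and showed no such position. A core centre lay within 200 bp of the summit in 79 CTCF DBD peaks (12.2%, 9.88 to 14.9) and 40 Sp1 WT peaks (0.777%, 0.571 to 1.06). The first and second inputs gave the same number and 84 peaks for CTCF DBD, with median distances of 122 and 106 bp. Read along the motif, the summit was 5′ of the core in 46 peaks and 3′ of it in 33. The window of 100 bp thus missed most cores, and over whole peaks the core was found in 90 CTCF DBD peaks (13.9%).

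These 90 peaks were mostly private. Only 15 were shared with Sp1 WT, so that 15 of 200 shared and 75 of 449 private peaks (16.7%) held it. With the core counted within 200 bp of the summit the shares were 4.50% and 15.6%, a difference of -11.1 points (-15.3 to -6.19), while within 100 bp the difference of -2.68 points stayed within counting error (-5.34 to 0.747). Of the 90, 66 lay outside repeats, with a median distance of 118 bp between core and summit, and in 29 of the 66 the distance was 100 to 149 bp. In the 24 inside repeats the median was 114 bp. Of the 90, 4 were nearest to DNM1P pseudogenes (copies of the dynamin 1 gene), all with the core 125 to 131 bp from the summit, and 4 were nearest to the mostly subtelomeric DDX11L pseudogenes, with the core 7 to 75 bp away. These 2 gene families were named after the values were seen, and copies of 1 sequence are not independent sites. Peaks with a core anywhere had a median −log10 p of 10.4 and peaks without one 10.1. A core lay somewhere in 10 of the 65 strongest CTCF DBD peaks (15.4%, 8.58 to 26.1), close to the share in the list.

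**Figure D3:**
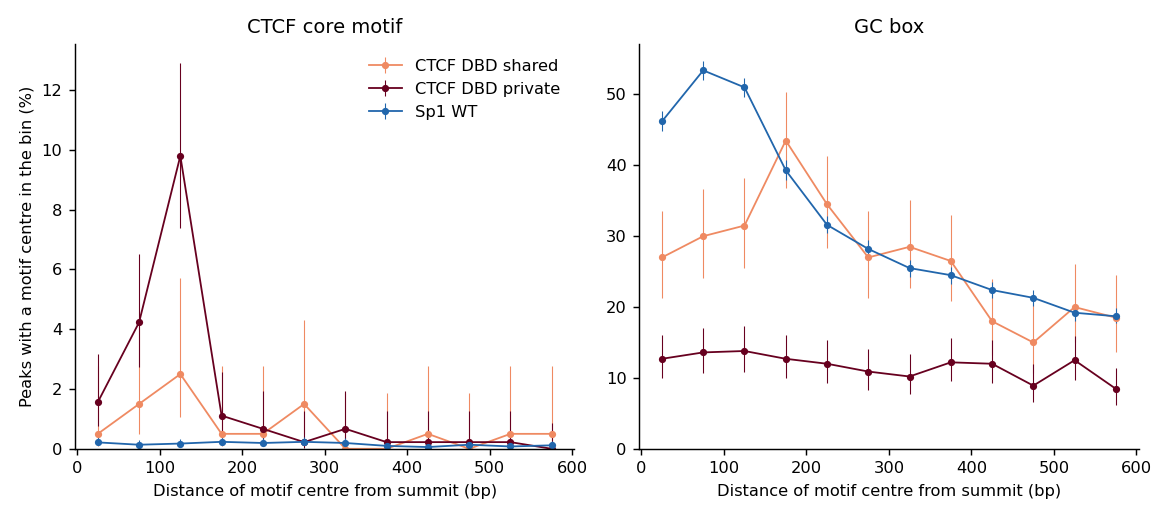
Share of peaks (%) with the centre of a CTCF core motif (left) or of a GC box (right) in each 50-bp bin of distance from the summit (bp), for shared CTCF DBD, private CTCF DBD and all Sp1 WT peaks; vertical lines are 95% Wilson intervals. The core reaches 9.80% of private CTCF DBD peaks at 100 to 149 bp, and the GC box is highest at 50 to 99 bp in Sp1 WT peaks (53.4%) and at 150 to 199 bp in shared CTCF DBD peaks (43.5%). Summits are the merged ones, and from the first and second input summits the last value is 36.0% and 39.0%.

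The GC box was more frequent in shared than in private CTCF DBD peaks. It lay within 100 bp of the summit in 48.5% of shared and 23.2% of private CTCF DBD peaks, a difference of 25.3 points (17.4 to 33.1). Sharing was defined by a list with the box in 70.2% of its summit windows, so this split is not independent of the definition. The size of this difference depended on the letters and the window searched. It was 3.50 points for the longer string GGGGCGGGG (5.50% and 2.0%), 15.4 points within 50 bp and 40.6 points within 200 bp (a window chosen after seeing the data). When only the 649 strongest Sp1 WT peaks defined sharing it was 44.4 points (26.3 to 57.4), which rests on 30 shared peaks. The shared share was close to the 46.9% of windows at gene starts. The private share was above that of the flanking windows and below that of gene starts. Shared peaks were also more often within 1000 bp of a start (81.5% against 43.4%). Whether the GC box share differed at equal distance from a start was not tested. In the Sp1 WT list the order was the opposite, with a GC box in 120 of 200 shared peaks and in 70.6% of private ones (-10.6 points, -17.6 to -3.91). Seen from the CTCF DBD summits of shared peaks, the box was most frequent 150 to 199 bp away (43.5%) and less so at 0 to 49 bp (54 of 200 peaks). Private CTCF DBD peaks showed little change with distance, from 13.8% at 100 to 149 bp to 8.46% in the last 50 bp before 600 bp. The G+C content of the windows had medians of 59.7% for CTCF DBD and 66.7% for Sp1 WT, and of 63.4% and 57.7% for shared and private CTCF DBD peaks.

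CTCF DBD peaks were narrower. Their median width was 583 bp (quartiles 401 and 802), against 941 bp for Sp1 WT (678 and 1308). The first and second inputs gave medians of 410 and 550 bp for CTCF DBD and of 705 and 905 bp for Sp1 WT, so both CTCF DBD inputs were below both Sp1 WT inputs. Width went with the −log10 p of the peak, and the lists differed in that too, with medians of 10.2 and 18.7. In bands of equal −log10 p the order of the widths held, with medians of 540.5 and 648 bp below 10, 586 and 772 bp from 10 to 15, and 790 and 967 bp from 15 to 34. The p-values depend on depth, which was not analysed here, so the bands do not make the lists comparable in signal. Shared CTCF DBD peaks (median 660 bp) were wider than private ones (544 bp), in the first input (468 and 388 bp) as in the second (634 and 522 bp). CTCF DBD peaks within 1000 bp of a start had a median width of 650.5 bp and the others 469 bp. Repeated CTCF DBD peaks were the narrowest of these classes, with a median of 373 bp.

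**Figure D4:**
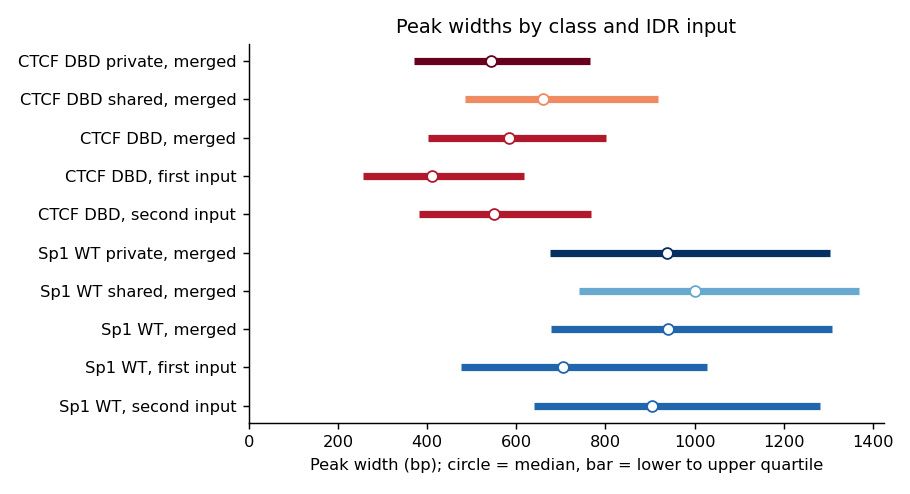
Peak widths (bp) by class and IDR input; circles are medians and bars run from the lower to the upper quartile. Both CTCF DBD inputs (410 and 550 bp) lie below both Sp1 WT inputs (705 and 905 bp), and shared CTCF DBD peaks (660 bp) lie above private ones (544 bp).

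Sharing was then set against rank. Of the 163 strongest CTCF DBD peaks 33.7% overlapped an Sp1 WT peak and of the 162 weakest 31.5%, a difference of 2.26 points that was within counting error (-7.88 to 12.3). This rested on the first input. Ranked and placed by the second input alone, the shares were 38% and 25.9%, a difference of 12.1 points (1.97 to 21.9), against 1.03 points with the first input alone. Shared and private CTCF DBD peaks had the same median −log10 p of 10.2, merged and in the first input, but medians of 18.9 and 17.1 in the second. In the Sp1 WT list the 1288 strongest peaks overlapped more often, at 5.12% against 2.33% of the 1287 weakest (2.79 points, 1.34 to 4.30). At an IDR of at most 0.05 the latter difference was 0.635 points and within counting error (-0.786 to 2.08). The overlap itself depended on the length of the lists. Against the 649 strongest Sp1 WT peaks alone, 30 CTCF DBD peaks (4.62%) were shared, and at an IDR of at most 0.01 in both lists 30 of 133 were (22.6%).

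**Figure D5:**
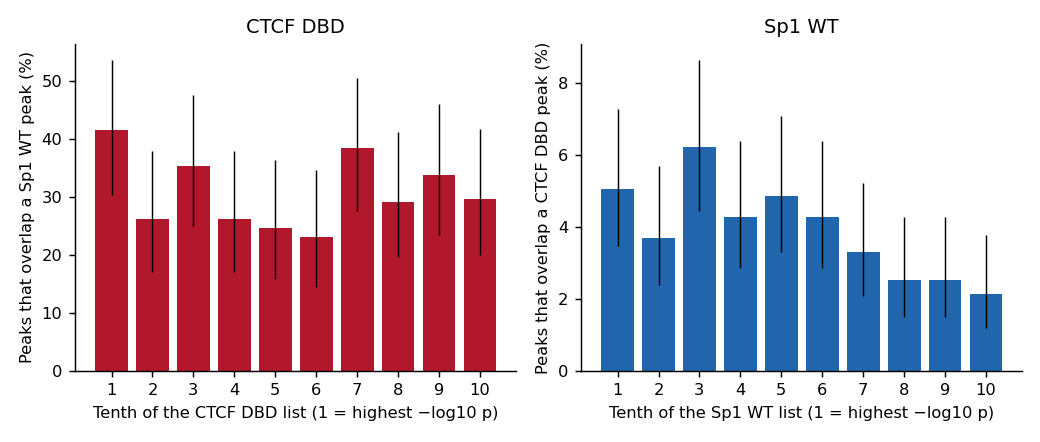
Share of peaks (%) that overlap the other list in 10 groups of equal size from the CTCF DBD list (left) and the Sp1 WT list (right), in order of −log10 p; vertical lines are 95% Wilson intervals and the y axes differ. The CTCF DBD groups run between 23.1% and 41.5% with no order, and the 3 weakest Sp1 WT groups are lowest at 2.14% to 2.52%.

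Within the 200 shared pairs, the places were close and the ranks did not follow each other. The summits of a pair were a median of 98.5 bp apart (quartiles 33.0 and 221), within 100 bp in 104 pairs and over 500 bp apart in 13. Between the 2 inputs of a list the median shift of a summit was 33.0 bp for CTCF DBD and 39.0 bp for Sp1 WT. The CTCF DBD peak lay fully inside the Sp1 WT peak in 105 pairs, and the Sp1 WT peak was the wider in 154 pairs, with a median ratio of 1.44. The Sp1 WT −log10 p was the higher in 179 pairs. The Spearman correlation of the −log10 p values over the 200 pairs was -0.0516, and it was -0.0540 in the first and 0.132 in the second inputs. As a description of the lists themselves, the Spearman correlation between the inputs was 0.345 over the 649 CTCF DBD peaks and 0.817 over the 5151 Sp1 WT peaks. Points of the same list share 2 libraries.

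The 10 leading shared peaks were taken by their CTCF DBD rank, outside repeats. The peak nearest ZFP91-CNTF, a readthrough gene, ranked 7 in CTCF DBD (−log10 p 25.9 in the first and 40.7 in the second input) and 1649 in Sp1 WT (24.9 and 37.8), with summits 991 bp apart. The peak of ZNF808, a KRAB zinc finger gene, ranked 8 and 673, with values of 25.4 and 44.7 in CTCF DBD and of 39.5 and 52.9 in Sp1 WT and summits 30 bp apart. The peak at EEF1AKMT4-ECE2, also a readthrough gene, ranked 14 in CTCF DBD and 5084 in Sp1 WT. Their place near the top of the CTCF DBD list was set in advance by this choice, and their Sp1 WT ranks ran from 673 to 5084. The other 7 lay nearest CA13 (a carbonic anhydrase), CNNM3, SRGAP1 (a GTPase-activating protein), the pseudogene FNBP1P1, FOXD2 (a forkhead factor), a long noncoding RNA gene at ANK1, and AAAS (a nuclear pore protein), with Sp1 WT ranks from 1144 to 4470. None of the 10 held the CTCF core within 100 bp of the summit, and 5 held a GC box there.

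The 10 leading private CTCF DBD peaks were of mixed kinds. The highest, nearest LZTS2 but in an intron of PDZD7 (chr10:101012738-101013763), had a −log10 p of 33.2 in the first and 60.6 in the second input and lay 13367 bp from the nearest start. The second, nearest a long noncoding RNA gene (chr15:77910153-77910977), had values of 30.5 and 53.4 and held the CTCF core 115 bp from its summit. The peak near TOMM6, a subunit of the mitochondrial import pore, had values of 26.5 and 44 and its core 793 bp from the summit. Further ones lay nearest LINC01545, RSAD1, COBL (an actin nucleator), RN7SL3 and RN7SL853P (signal recognition particle RNA loci) and LINC02884. None of the 10 overlapped any of the anti-V5 lists, and 7 overlapped the list of the chimera Sp1 IDR-CTCF DBD, as did 7 of the 10 leading shared peaks, of which 5 overlapped an anti-V5 list. The 10 leading private Sp1 WT peaks each overlapped at least 2 of the 8 anti-V5 lists. The Sp1 DBD list was met by all 10 of these and by 5 of the 10 leading shared peaks. It was also met by 1 of the 10 leading private CTCF DBD peaks, near TOMM6. Private CTCF DBD peaks are by definition outside an Sp1 list, so this contrast is not independent of the definition. The named peaks were picked by rank and do not stand for their classes.

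Overlaps with the other lists of the series followed the same division. Of all CTCF DBD peaks, 12.5% overlapped an anti-V5 list of the parental line, which maps endogenous Sp1. The share was 31% in shared and 4.23% in private CTCF DBD peaks, a difference of 26.8 points (20.3 to 33.7) that was 58.5 points at an IDR of at most 0.01 and 74.3 points with lists of equal length. Sharing was itself defined by an Sp1 list, so this split is not independent of the definition. The list of the Sp1 DBD alone was met by 54.0% of shared and 7.35% of private peaks. The list of Sp1 IDR-CTCF DBD, the same zinc fingers joined to the Sp1 disordered region, held 166 peaks. It was met by 49 of 200 shared (24.5%) and 71 of 449 private CTCF DBD peaks (15.8%). The difference of 8.69 points (2.13 to 15.8) was within counting error at an IDR of at most 0.05. This list is much shorter than the CTCF DBD list, so its length caps the shares that can meet it. Low shares here therefore do not show that the lists disagree. The share of Sp1 IDR-CTCF DBD peaks that met the CTCF DBD list is not given here. The Sp1 IDR-CTCF DBD list was met by 37.4% of the 163 strongest and 9.26% of the 162 weakest CTCF DBD peaks, beyond counting error (28.2 points, 19.2 to 36.6). Sp1 IDR-CTCF DBD had a core within 200 bp of the summit in 15.7% of its peaks, which did not differ from the 12.2% of CTCF DBD beyond counting error (-3.49 points, -10.2 to 1.99). The median distance of the core from the summit was 77.5 bp in Sp1 IDR-CTCF DBD (26 peaks) and 113 bp in CTCF DBD (79 peaks). These medians were 77.0 and 122 bp in the first inputs and closer, at 92.5 and 106 bp, in the second. Whether the positions differ was not tested. In Sp1 IDR-CTCF DBD the bin of 50 to 99 bp held most peaks (14 of 166), and that of 100 to 149 bp held 7. The Wilson intervals of these bins overlap (5.09% to 13.7% and 2.06% to 8.45%). The control lists were short. None of the CTCF DBD peaks overlapped the 22 peaks of the parental line with the same antibody. The list of 295 peaks of SNAP-NLS, a tag with a nuclear localization signal and no DNA binding domain, was met by 36 CTCF DBD peaks (5.55%) against 0.388% of Sp1 WT peaks, a difference of 5.16 points (3.63 to 7.20). Outside repeats the shares were 0.192% and 0%.

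At the level of genes, 359 of 20046 protein-coding genes (1.79%) had a start within 1000 bp of a CTCF DBD summit, 4596 (22.9%) had an Sp1 WT summit, and 198 (0.988%) had both. Those 198 were 55.2% of the CTCF DBD genes and 4.31% of the Sp1 WT genes, and 161 genes had a CTCF DBD summit only. These 3 percentages are the background against which the gene lists below are read.

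Housekeeping gene lists, of the kind Sp1 promoters are known for, held from 1 to 5 genes with a CTCF DBD summit. Of 86 cytosolic ribosomal protein genes, 3 had a CTCF DBD summit (RPL3, RPL5 and RPL39L) and 18 (20.9%) had an Sp1 WT summit. Of 78 mitochondrial ribosomal protein genes, 5 had a CTCF DBD summit (MRPL34, MRPL58, MRPS2, MRPS12 and MRPS30) and 25 (32.1%) an Sp1 WT summit. Of 48 proteasome genes, 2 (PSMB9, an immunoproteasome subunit, and the assembly factor PSMG3) had a CTCF DBD summit (4.17%) and 21 (43.8%) an Sp1 WT summit. Of 87 nuclear genes of oxidative phosphorylation, 1 (NDUFA6, a complex I subunit, 1.15%) and 19 (21.8%) did, and of 49 splicing genes 1 (SNRPD1, 2.04%) and 14 (28.6%) did. With ribosomal protein shares of 3.49% and 6.41%, 4 of the 5 CTCF DBD shares lay above the background of 1.79%, but each rested on so few genes that nothing is read from them. The Sp1 WT shares of cytosolic ribosomal protein and oxidative phosphorylation genes lay just below the 22.9% of all genes. Those of the mitochondrial ribosomal protein, proteasome and splicing genes lay above it.

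Zinc finger genes, the longest list, gave the largest count. Of 508 numbered zinc finger genes, 7 had a CTCF DBD summit (1.38%, near the background). Of the 7, 6 also had an Sp1 WT summit, namely ZNF25, ZNF131, ZNF146, ZNF219, ZNF565 and ZNF808. Among all genes with a CTCF DBD summit this held for 55.2%, and 7 genes are too few to set against it. The CTCF DBD peak at ZNF131 did not itself overlap an Sp1 WT peak. ZNF146 and ZNF565 are neighbours on chromosome 19 and share 1 peak. ZNF256 had a CTCF DBD summit only, with a −log10 p of 8.94 in the first and 16.8 in the second input. Of 27 genes of the SP and KLF factors, the family of Sp1, 13 had an Sp1 WT summit (48.1%, against 22.9% of all genes) and 1, KLF7, had both. Its CTCF DBD peak had values of 7.63 and 16.4 and ranked 597, and its Sp1 WT peak ranked 1318.

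Clustered protocadherin, HOX and imprinted genes, groups known for CTCF sites, held 0 or 1 gene with a CTCF DBD summit each, too few to set against the background. Peaks over 1000 bp from a start of these genes were not counted. None of the 53 clustered protocadherin genes, whose promoters carry CTCF sites, had a summit of either construct within 1000 bp, nor did any of 415 olfactory receptor genes. Of 39 HOX genes, 1 (HOXA9) had a CTCF DBD summit (2.56%), with values of 9.25 and 20.7. Of 22 imprinted genes, 1 had a CTCF DBD summit (4.55%): PEG3, an imprinted zinc finger gene, with values of 9.22 and 14.5, where the CTCF DBD peak overlapped the Sp1 WT peak of rank 69, whose summit was over 1000 bp from a start of the gene. Of 69 replication-dependent histone genes, 2 had a CTCF DBD summit (2.90%), H4C14 and H4C15, near-identical copies in fully repeated sequence. An Sp1 WT summit was found at 5 of the 69 (7.25%, against 22.9% of all genes). Of 14 genes of CTCF and the cohesin complex, 0 had a CTCF DBD summit and 4 (28.6%) an Sp1 WT summit. The CTCF gene was 1 of these, with an Sp1 WT peak at chr16:67561566-67563630 (−log10 p 48.5, rank 406) and no CTCF DBD peak in the gene or within 1000 bp. Neither list had a peak in SP1 or in PPP1R12C, the gene that holds the AAVS1 site, or within 1000 bp of them. At SP1 all 8 anti-V5 lists did have a peak, with −log10 p values from 59.8 to 78.3, as did the anti-FLAG lists of the Sp1 DBD alone (35.7) and of EWS IDR-Sp1 DBD (62.6).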

How the data were processed

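The CUT&RUN reads had been cut free of adapters (Cutadapt 2.6) and mapped to hg38 (Bowtie2 2.3.5.1) by the authors, who dropped duplicates in SAMtools 1.9. MACS3 peaks of each replicate, taken at a p-value of 1e-3 with pooled controls as background, were then passed to IDR in pairs, 1 pair per line and antibody. The −log10 p-value of each merged peak and of each IDR input is the authors', as deposited. In both lists it equals the smaller of the inputs. The IDR score, used for stricter thresholds, was also deposited by the authors. Which labelled replicate was the first input is not known here. The deposited tables of differential regions hold the authors' own log10 likelihood ratios (MACS3 bdgdiff) and were not used. The study lists read numbers, which were not analysed here, so no value is set against depth.

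Peaks of 2 of the 19 lists (4 of 38 samples) were compared. Overlap meant at least 1 bp. The nearest transcription start was taken from all 219706 starts of GENCODE 44, and motifs were searched on both strands within 100 bp of each summit in hg38 and in windows 2000 bp to either side. The GC box is GGGCGG. Repeated sequence was defined by the 31-base words within 100 bp of the summit. Shares have 95% Wilson and differences 95% Newcombe intervals (SciPy 1.17.1, pandas 2.3.3, pysam 0.24.0), and the functions were tested on made-up data. Named peaks are the 10 with the highest −log10 p-value in each of the 3 classes, outside repeats and on chromosomes 1 to 22 and X. Shared peaks were ranked by their value in the CTCF DBD list. A named peak that is withheld is not reported here. Fixed gene lists may be named where a CTCF DBD summit lies within 1000 bp. The members and lists were chosen with earlier results of these data known. The profiles by distance, the classes by core in the whole peak, the width bands and the lists that hold the named peaks were added after the first tables were seen. Alternatives were other IDR thresholds, equal list lengths, control peaks removed, main chromosomes only, repeats removed, each IDR input alone, other distances, only protein-coding starts, other overlap rules, other motif windows and GGGGCGGGG.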

Additional observations from a re-analysis of the deposited data

How the results depend on the processing

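No paired analysis was possible because each list was made from both replicates and has no replicate of its own. Under the alternatives, 111 of the recomputed values kept their direction and their side of the limit. Of the rest, 10 were weaker, 4 were stronger, 10 moved in size and 4 changed sign. The share of protein-coding starts among promoter peaks, CTCF DBD minus Sp1 WT, came within counting error at an IDR of at most 0.05 (-4.35 points), with equal list lengths (-4.43), without repeats (-2.98) and at 500 bp (-4.35). The share of Sp1 WT peaks overlapped was 2.96% and 1.17% at an IDR of at most 0.05 and 0.01, and that of CTCF DBD peaks 22.6% at 0.01. With equal lengths both were 4.62%, and the width difference was -814 bp. Each IDR input alone gave width differences of -295 and -355 bp. The difference in overlap between the strongest and weakest CTCF DBD peaks changed sign under 4 alternatives, each within counting error. It was -0.909, -0.802, -1.87 and -2.55 points at an IDR of 0.05, at 0.01, with equal lengths and without repeats. With each input alone it was 1.03 and 12.1 points. In the Sp1 WT list it was 0.635, 0.467 and 3.05 points at an IDR of 0.05, at 0.01 and with equal lengths, all within counting error. The core motif difference between shared and private CTCF DBD peaks passed counting error at an IDR of 0.05 (-4.07), over whole peaks (-9.20) and within 200 bp (-11.1, an alternative chosen after seeing the data). The difference in overlap with Sp1 IDR-CTCF DBD came within counting error at 0.05 (6.85), at 0.01 (9.22) and with equal lengths (8.57). Genes with both summits numbered 131, 32.0 and 35.0 under these 3 settings. Stricter thresholds and equal lengths leave fewer peaks by construction. The cause of the other changes was not tested. Read numbers were not analysed here, so no limit from depth is given.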
